A study of Mus musculus with 24 samples.

Results

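The integrated stress response regulators are the 10 genes Atf4, Ddit3, Atf3, Atf5, Chac1, Trib3, Ddit4, Ppp1r15a, Sesn2 and Gdf15. They were chosen by name as genes known from textbook biology to drive or carry out this response. The choice was made with earlier results of these data known. Shares of all probes beside the counts below are therefore a description and not a test. All 10 were found on the array, as 12 of its 41174 probes and 10 of the 18432 protein-coding genes that have a probe. Ppp1r15a was listed under its older name Myd116. Trib3 and Sesn2 have 2 probes each, and the brighter probe stands for the gene. Each of the 12 probes was well above background on all 24 arrays, and none was saturated on any.

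Messenger RNA was measured on Agilent whole mouse genome one-colour arrays in immortalized mouse embryonic fibroblasts (MEFs) from Ku70-/- mice, which lack a protein of the DNA end-joining repair machinery. Every group carried this deletion, controls included, so the effect of losing Ku70 is not compared. In set 1 (15 arrays), cells were left untreated, given 20 mM potassium bromate (KBrO3, an oxidant that damages DNA) for 1 hr, or co-exposed to KBrO3 and 150 µM bisphenol A (BPA, used in food containers and epoxies) with BPA also given for 1 hr before and throughout repair. RNA was taken 4 or 24 hr after damage induction. In set 2 (9 arrays), cells were untreated or given 150 µM BPA alone, with RNA labelled 4 or 24 hr. Each group has 3 arrays, described as biological replicates. The set 1 controls are labelled 4 hr and the set 2 controls carry no time, so no 24 hr group has an untreated group known to be of its own time.

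A level below is the log2 of the probe signal minus the log2 75th percentile of its array, so 1 unit is 2-fold and a level of 0 is the array's 75th percentile. Levels of different genes come from different probes and are not compared with each other. A gene is called higher or lower where limma, fitted over all probes of its set, gave a Benjamini-Hochberg adjusted p below 0.05 and a difference beyond 1.5-fold. The sets differ in precision: the median residual SD over all probes tested was 0.107 in set 1 and 0.34 in set 2. The share of spots above background was 57.7% to 68.1% in set 1 and 76.4% to 79.4% in set 2. Of 11 fibroblast markers, 10 were above background on all 24 arrays, the exception being Thy1, which was so on 10 of 15 set 1 arrays. Among markers of other cell types, 1 of 5 epithelial, 2 of 5 macrophage, 2 of 4 endothelial and 1 of 5 muscle markers were above background on every array. Less RNA per cell and fewer cells that express a gene cannot be told apart in such cultures.

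In the integrated stress response, kinases that sense amino acid shortage, unfolded protein, double-stranded RNA or heme deficiency phosphorylate the translation factor eIF2α. Bulk protein synthesis then falls while the messenger RNA of ATF4 is translated more, and ATF4 turns on genes for amino acid uptake and synthesis together with further regulators. CHOP (the product of Ddit3) and ATF3 are transcription factors that act with or after ATF4, GADD34 (Ppp1r15a) recruits a phosphatase that resets eIF2α, and the pseudokinase TRIB3 restrains ATF4. Arrays measure messenger RNA, so eIF2α phosphorylation and ATF4 protein are outside these data.

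Promoters of the members are shown because most members were called higher in several of the same comparisons, and because ATF4 and its partners bind known short sequences. RefSeq promoters (build GRCm38.p6) were matched for all 10 members, as 12 promoters since Atf5 and Gdf15 have 2 each, and the 250 bases before each start site were searched on both strands for 5 motifs. The core of the C/EBP-ATF composite element bound by ATF4, TGATGNAA, was found in Atf3 (103 to 110 bases before the start) and Chac1 (186 to 193 bases before it), and in 3.18% of 21263 protein-coding promoters of the same length. The cyclic AMP response element, TGACGTCA, was found in Ppp1r15a (5 to 12 bases before the start) and in 1.92% of all promoters. An AP-1 site, TGANTCA, was found in Ddit3 (236 to 242 bases before the start) and in 6.13% of all promoters. Sesn2 held the core of the antioxidant response element, TGACNNNGC, which 10.4% of all promoters hold. The endoplasmic reticulum stress element was in none of the 12 and in 0.132% of all promoters. No promoter of a member held more than 1 match, so no matches overlapped. The 4 promoters below are written 5′ to 3′ on the gene's strand, with the match in capitals. Atf3 is at chr1:191183334-191183583 (minus strand), Chac1 at chr2:119350992-119351241 (plus strand), Ppp1r15a at chr7:45526269-45526518 (minus strand) and Ddit3 at chr10:127290543-127290792 (plus strand).
Atf3: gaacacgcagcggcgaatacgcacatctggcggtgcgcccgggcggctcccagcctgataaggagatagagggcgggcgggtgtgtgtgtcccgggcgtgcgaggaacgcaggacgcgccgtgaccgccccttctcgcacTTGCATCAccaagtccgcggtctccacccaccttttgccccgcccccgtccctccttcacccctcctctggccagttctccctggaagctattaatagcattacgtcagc
Chac1: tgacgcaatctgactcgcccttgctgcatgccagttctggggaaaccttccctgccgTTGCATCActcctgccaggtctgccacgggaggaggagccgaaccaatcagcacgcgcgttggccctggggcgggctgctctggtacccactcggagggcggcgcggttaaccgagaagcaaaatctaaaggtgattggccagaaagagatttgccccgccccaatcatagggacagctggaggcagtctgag
Ppp1r15a: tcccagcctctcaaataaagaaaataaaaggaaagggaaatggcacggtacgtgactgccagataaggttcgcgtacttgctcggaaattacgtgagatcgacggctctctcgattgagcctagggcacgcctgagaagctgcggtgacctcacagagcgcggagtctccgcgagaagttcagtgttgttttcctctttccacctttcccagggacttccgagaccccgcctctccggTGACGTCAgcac
Ddit3: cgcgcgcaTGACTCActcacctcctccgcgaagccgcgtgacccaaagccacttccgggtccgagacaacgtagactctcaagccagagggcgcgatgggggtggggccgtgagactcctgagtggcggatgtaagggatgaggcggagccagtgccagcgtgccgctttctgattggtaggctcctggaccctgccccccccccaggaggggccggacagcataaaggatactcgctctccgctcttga
The composite element appears in Atf3 and Chac1 as TTGCATCA, which is TGATGCAA on the other strand. A match describes letters in this window and not a bound site.

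The first question was how the regulators answered KBrO3 alone. At 4 hr, 7 of the 10 were higher than in untreated cells and none was lower, against 23.0% of all 27310 probes tested that were higher. Their median log2 difference was 1.68, where the median of all probes was 0.06. The 7 were Atf3, Gdf15, Sesn2, Ppp1r15a, Ddit3, Atf4 and Chac1, while Trib3, Ddit4 and Atf5 were not called. By 24 hr the count was 5 (Gdf15, Ppp1r15a, Atf3, Trib3 and Chac1), with none lower, against 14.1% of all probes higher, and the median log2 difference was 0.59. Between 4 and 24 hr of KBrO3, 7 members fell (Atf3, Sesn2, Ddit3, Gdf15, Ppp1r15a, Atf4 and Ddit4), against 27.9% of all probes, and none was called higher. Trib3 was higher at 24 hr by 0.23 ± 0.05 (adjusted p = 0.00113), which is under 1.5-fold. Quantile normalization left Atf4 (-0.52) and Ddit4 (-0.31) under 1.5-fold in this comparison, and median scaling left Ddit4 (-0.56) under it.

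The next question was what BPA added to KBrO3 did. Co-exposed cells had 9 members higher than controls at 4 hr (29.9% of all probes were higher) and 10 at 24 hr (15.9%), with median log2 differences of 2.94 and 1.72. Set directly against KBrO3, co-exposure gave 8 of 10 members higher and none lower at 4 hr, against 11.9% of all probes. With arrays scaled to their median this 4 hr count was 5, since Atf4 (0.52), Ppp1r15a (0.50) and Atf3 (0.49) fell short of 1.5-fold. Under the Bonferroni rule of the methods (p below 0.01) it was 6, without Sesn2 and Ppp1r15a. At 24 hr all 10 were higher, against 5.35% of all probes. The median member was higher by 0.73 at 4 hr and by 1.48 at 24 hr on the log2 scale, beside medians of all probes of 0.02 and -0.04. Every co-exposed array lay above every KBrO3 array for 8 members at 4 hr (38.4% of all probes) and for 10 at 24 hr (24.1%). Comparisons of KBrO3 and of co-exposure with control share the same 3 control arrays. The slides set a limit at 4 hr: all co-exposed arrays lie on other slides than all KBrO3 arrays, so slide and treatment cannot be told apart there. The same holds for KBrO3 at 24 hr and co-exposure at either time against control, and for KBrO3 at 24 hr against 4 hr, where the groups compared have no slide in common. The change of the co-exposed minus KBrO3 difference with time rests in part on the 4 hr comparison and carries its limit. Co-exposed 4 and 24 hr arrays share no slide either, but both share one with KBrO3 24 hr arrays, and with slide as a fixed block the count of members called between these times did not change. On the slide with all KBrO3 4 hr arrays and 1 control array, 9 of 10 members were higher with KBrO3, the exception being Atf5 (-0.05). At 24 hr, the slide that holds 2 arrays of each group had all 10 members higher with co-exposure, by 0.82 to 2.28. The share of all probes higher within these slides was not computed.

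**Figure D1:**
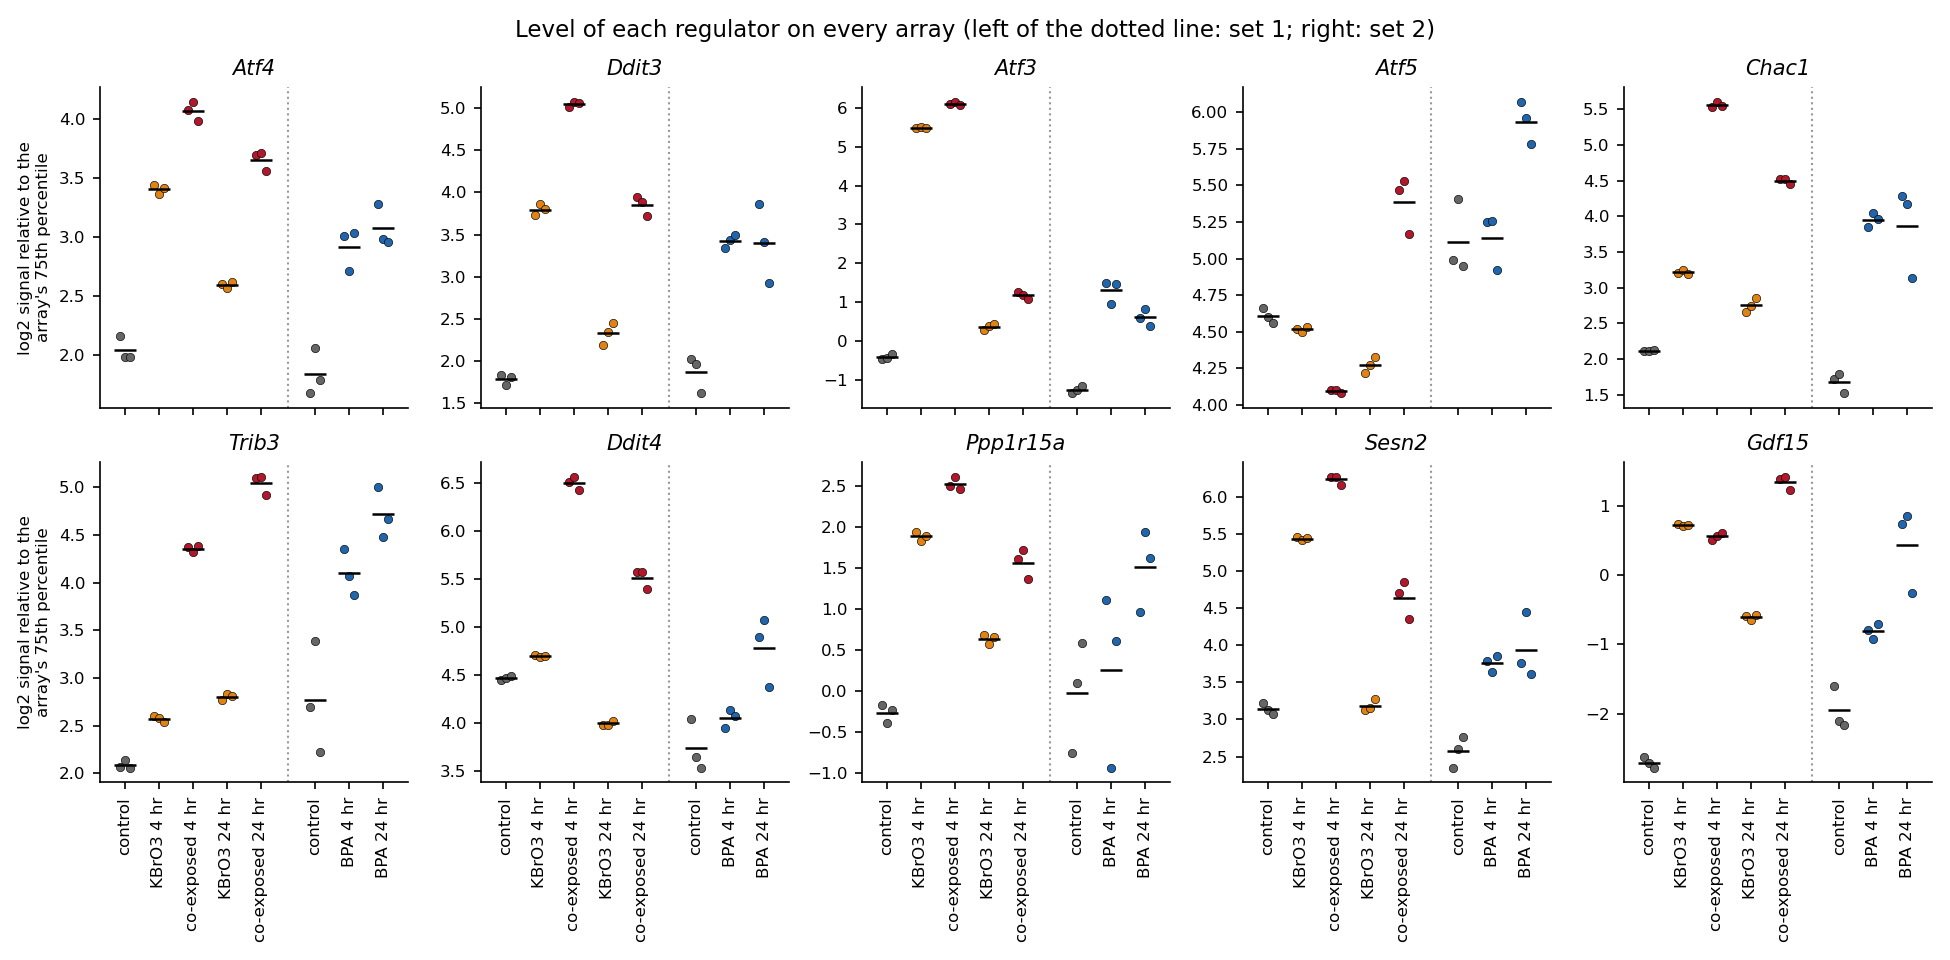
Level of each regulator (log2 signal relative to the array's 75th percentile, own vertical scale per gene) on each of the 24 arrays; points are arrays, bars are group means, and a dotted line separates set 1 from set 2. Apart from Atf5 and Gdf15 at 4 hr, the co-exposed arrays lie above the KBrO3 arrays of the same time for every gene.

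Atf4, the central transcription factor, was measured by a probe at chr15:80341130-80341189 (mm7, plus strand). It stood at 2.16, 1.99 and 1.99 on the control arrays, at 3.44, 3.36 and 3.41 after KBrO3 at 4 hr and at 4.07, 4.14 and 3.98 after co-exposure at 4 hr. At 24 hr it stood at 2.60, 2.57 and 2.62 after KBrO3 and at 3.69, 3.71 and 3.56 after co-exposure. None of these 5 groups overlapped another, and the order was co-exposed 4 hr, co-exposed 24 hr, KBrO3 4 hr, KBrO3 24 hr and control, with every neighbouring pair apart at an adjusted p of 0.00214 or below. KBrO3 raised Atf4 2.56-fold at 4 hr (log2 difference 1.36 ± 0.06 SE, adjusted p = 6.77e-10). At 24 hr it was 1.46-fold above control (0.55 ± 0.06, adjusted p = 5.3e-06), short of the 1.5-fold limit. It was past this limit in 4 of 18 alternatives, at 0.60 without control replicate 1, 0.64 with quantile normalization, 0.70 with median scaling and 0.81 with normexp background correction. Co-exposed cells held 1.58 times the Atf4 of KBrO3 cells at 4 hr (0.66 ± 0.06, adjusted p = 3.32e-06) and 2.08 times at 24 hr (1.06 ± 0.06, adjusted p = 5.72e-08). With arrays scaled to their median the 4 hr value was 0.52, below 1.5-fold.

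Ddit3 encodes CHOP, a transcription factor linked to death under prolonged stress, and its probe lies at chr10:126796858-126797161 (mm7, plus strand). Its control level of 1.83, 1.72 and 1.81 rose to 3.73, 3.86 and 3.80 with KBrO3 and to 5.01, 5.07 and 5.06 with co-exposure at 4 hr. At 24 hr the KBrO3 arrays had 2.19, 2.35 and 2.45 and the co-exposed arrays 3.94, 3.88 and 3.72. The co-exposed 24 hr arrays overlapped the KBrO3 4 hr arrays (adjusted p = 0.534), and the other neighbours in the order did not overlap. In fold terms Ddit3 was 4.03-fold above control at 4 hr of KBrO3 and 9.59-fold at 4 hr of co-exposure. At 24 hr it was 4.17-fold above control in co-exposed cells and 1.46-fold in KBrO3 cells, the latter not called (log2 difference 0.54 ± 0.07). The latter was past the limit without KBrO3 24 hr replicate 1 (0.61), with quantile normalization (0.61), with median scaling (0.69) and with normexp (0.74). Co-exposure exceeded KBrO3 by 1.25 ± 0.07 at 4 hr (adjusted p = 1.11e-07) and by 1.52 ± 0.07 at 24 hr (adjusted p = 1.28e-08).

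Atf3, a stress-inducible transcription factor that mostly represses its targets, had the largest 4 hr differences from control among the members in both treatments (probe at chr1:190724174-190724233, mm7, minus strand; promoter shown above). Its level was -0.45, -0.44 and -0.34 on control arrays, 5.47, 5.50 and 5.47 with KBrO3 at 4 hr and 6.10, 6.15 and 6.07 with co-exposure at 4 hr. At 24 hr it was back to 0.29, 0.40 and 0.43 with KBrO3 and to 1.26, 1.19 and 1.09 with co-exposure. The 5 groups were all separate, and the time points lay further apart than the treatments within a time. Atf3 was 59.2-fold above control at 4 hr of KBrO3 (log2 difference 5.89 ± 0.05, adjusted p = 2.44e-15) and 91.4-fold at 4 hr of co-exposure. From 4 to 24 hr it fell by 5.11 with KBrO3 and by 4.92 with co-exposure on the log2 scale. Co-exposed cells exceeded KBrO3 cells 1.54-fold at 4 hr (0.63 ± 0.05) and 1.76-fold at 24 hr (0.81 ± 0.05). The 4 hr value was 0.49 with arrays scaled to their median, which is below 1.5-fold.

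Atf5, a transcription factor translated under the same control as ATF4, moved otherwise. It stood at 4.66, 4.60 and 4.56 in controls, at 4.52, 4.50 and 4.53 with KBrO3 at 4 hr and at 4.10, 4.10 and 4.08 with co-exposure at 4 hr. At 24 hr it stood at 4.22, 4.27 and 4.33 with KBrO3 and at 5.47, 5.53 and 5.17 with co-exposure. Co-exposed arrays were thus the lowest group at 4 hr and the highest at 24 hr. The 4 hr difference from KBrO3 was -0.42 ± 0.07 (adjusted p = 0.000492), less than 1.5-fold and so not called, while at 24 hr Atf5 was 2.17-fold higher (1.12 ± 0.07, adjusted p = 2.19e-07). The change of this difference from 4 to 24 hr was 1.54 ± 0.11 (adjusted p = 7.21e-07). Against control, co-exposure at 4 hr gave -0.51, which passed 1.5-fold under quantile normalization (-0.68) and median scaling (-0.65).

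Chac1 and Trib3 were the members for which co-exposure at 4 hr differed most from KBrO3, together with Ddit4. Chac1, an enzyme that degrades glutathione, was at 2.11, 2.11 and 2.12 in controls, at 3.21, 3.24 and 3.19 with KBrO3 at 4 hr and at 5.53, 5.60 and 5.54 with co-exposure at 4 hr. At 24 hr its levels were 2.66, 2.74 and 2.85 with KBrO3 and 4.52, 4.52 and 4.45 with co-exposure. KBrO3 thus raised Chac1 2.13-fold at 4 hr and co-exposure 10.8-fold, a ratio of 5.08 between them (2.34 ± 0.05, adjusted p = 1.63e-10). At 24 hr the ratio was 3.36 (1.75 ± 0.05, adjusted p = 2.6e-10). The 24 hr rise with KBrO3 (1.55-fold, 0.63) was 0.58 without KBrO3 24 hr replicate 3, just under the limit.

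Trib3 encodes the pseudokinase that binds and restrains ATF4. Its levels were 2.07, 2.14 and 2.06 in controls, 2.60, 2.58 and 2.54 with KBrO3 at 4 hr and 4.37, 4.32 and 4.38 with co-exposure at 4 hr. Unlike most members it was higher at 24 hr than at 4 hr in co-exposed cells, at 5.10, 5.11 and 4.92 (log2 difference 0.68 ± 0.05, adjusted p = 7.49e-08), with KBrO3 at 2.77, 2.83 and 2.81. Co-exposure exceeded KBrO3 3.44-fold at 4 hr (1.78 ± 0.05) and 4.72-fold at 24 hr (2.24 ± 0.05), the largest 24 hr difference among the 10. The other Trib3 probe had 1.74 and 2.26. KBrO3 alone left Trib3 at 1.40-fold above control at 4 hr (not called, but called with normexp at 0.69) and at 1.64-fold at 24 hr (called).

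Ddit4 and Sesn2 encode REDD1 and sestrin 2, both inhibitors of the growth kinase complex mTORC1. Ddit4 was at 4.45, 4.47 and 4.49 in controls and at 4.71, 4.69 and 4.70 with KBrO3 at 4 hr, and rose to 6.51, 6.57 and 6.43 with co-exposure. At 24 hr it was at 3.98, 3.98 and 4.02 with KBrO3 and at 5.57, 5.57 and 5.40 with co-exposure. Ddit4 was therefore called against control in co-exposed cells (4.09-fold at 4 hr and 2.06-fold at 24 hr) and at neither time in KBrO3 cells, where its log2 differences were 0.23 and -0.48. The test of co-exposure against KBrO3 gave 3.48-fold at 4 hr (1.80 ± 0.05, adjusted p = 7.49e-10) and 2.87-fold at 24 hr (1.52 ± 0.05, adjusted p = 9.11e-10).

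Sesn2 rose with KBrO3 itself, from 3.22, 3.13 and 3.08 in controls to 5.45, 5.41 and 5.44 at 4 hr, and was back at 3.13, 3.16 and 3.27 at 24 hr, overlapping the controls (adjusted p = 0.713). Co-exposed arrays held 6.27, 6.27 and 6.16 at 4 hr and 4.70, 4.85 and 4.35 at 24 hr. The excess over KBrO3 was 1.74-fold at 4 hr (0.80 ± 0.10) and 2.72-fold at 24 hr (1.44 ± 0.10). Its second probe gave 1.12 and 1.11 for these, and 0.58 above control at 24 hr of KBrO3 where the brighter probe gave 0.05, so the probes disagree on whether the excess grew with time.

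Ppp1r15a encodes GADD34, which closes the response by resetting eIF2α. Its levels were -0.16, -0.39 and -0.23 in controls, 1.95, 1.84 and 1.89 with KBrO3 at 4 hr and 2.51, 2.62 and 2.47 with co-exposure at 4 hr. At 24 hr they were 0.69, 0.58 and 0.66 with KBrO3 and 1.62, 1.72 and 1.37 with co-exposure. No 2 of these groups overlapped. GADD34 messenger was 4.44-fold and 6.93-fold above control at 4 hr, and co-exposure exceeded KBrO3 1.56-fold at 4 hr (0.64 ± 0.09, adjusted p = 6.9e-05) and 1.91-fold at 24 hr (0.93 ± 0.09, adjusted p = 3.55e-06). The 4 hr value was 0.50 with median scaling, below 1.5-fold.

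Gdf15, a secreted stress cytokine, was at -2.63, -2.71 and -2.78 in controls and rose with KBrO3 to 0.74, 0.71 and 0.72 at 4 hr, then stood at -0.59, -0.65 and -0.58 at 24 hr. Co-exposed arrays were at 0.50, 0.57 and 0.60 at 4 hr and at 1.38, 1.42 and 1.22 at 24 hr. At 4 hr the co-exposed arrays were just below the KBrO3 arrays (-0.17 ± 0.06, adjusted p = 0.0214, 1.12-fold and not called). At 24 hr they were 3.85-fold above them (1.95 ± 0.06, adjusted p = 3.11e-10). From 4 to 24 hr Gdf15 fell by 1.33 with KBrO3 and rose by 0.79 with co-exposure, and the difference between these changes was 2.11 ± 0.08 (adjusted p = 1.06e-08). Gdf15 was 16.5-fold above control at 24 hr of co-exposure.

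**Figure D2:**
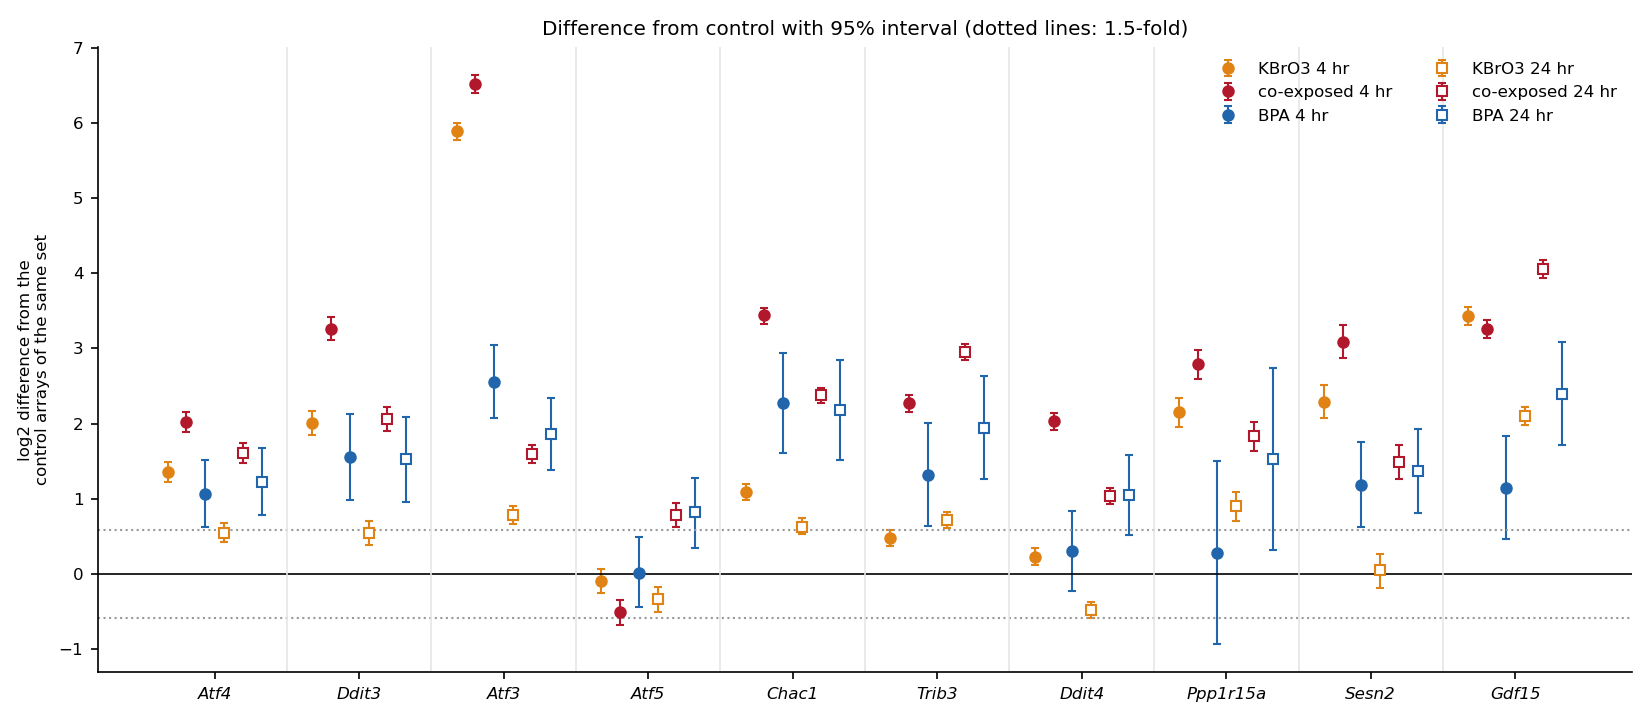
Log2 difference of each treatment from the control arrays of its own set, with 95% intervals from limma, for the 10 regulators; circles are 4 hr, open squares 24 hr, and dotted lines mark 1.5-fold. KBrO3 at 24 hr lies below co-exposure at 24 hr for every gene, and the BPA intervals of set 2 are the widest.

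From 4 to 24 hr of co-exposure, 6 members fell (Atf3, Sesn2, Ddit3, Chac1, Ddit4 and Ppp1r15a) and 3 rose (Atf5, Gdf15 and Trib3), 9 of 10 in all against 55.6% of all probes. Atf4 differed by -0.41 ± 0.06 (adjusted p = 4.35e-05), which is 1.33-fold. This value depends on the scaling: scaling to the median moved the median of all probes in this comparison by 0.46 and gave 0.05 for Atf4. It also left Ddit4 (-0.53) and Ppp1r15a (-0.50) under 1.5-fold, and with normexp background correction Gdf15 (0.74, adjusted p = 0.0562) was not called. The change of the co-exposed minus KBrO3 difference from 4 to 24 hr was called for 4 members, against 27.3% of all probes. It was positive for Gdf15 (2.11), Atf5 (1.54) and Sesn2 (0.64) and negative for Chac1 (-0.60). With median scaling Chac1 was at -0.29 (adjusted p = 0.1) and not called.

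BPA alone was measured in set 2. At 4 hr, 6 members were higher than in controls (Atf3, Chac1, Ddit3, Trib3, Sesn2 and Atf4) and none was lower, against 2.83% of all 31810 probes higher. At 24 hr, 8 were higher (these 6, Gdf15 and Ddit4) and none was lower, against 1.39% of all probes. Their median log2 differences were 1.17 and 1.53, beside medians of all probes of -0.03 and -0.01. No member was called between 24 and 4 hr of BPA by limma, where 1.00% of all probes were higher and 2.79% lower. At an unadjusted p below 0.05, 5 members differed between the BPA times, a number with no share of all probes beside it.

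Atf4 stood at 1.68, 2.06 and 1.79 on the set 2 control arrays, at 3.01, 2.71 and 3.03 after BPA at 4 hr and at 3.28, 2.98 and 2.96 at 24 hr. Every BPA array was above every control array, by 2.11-fold at 4 hr (1.07 ± 0.20, adjusted p = 0.019) and 2.35-fold at 24 hr (1.23 ± 0.20, adjusted p = 0.0132). Atf3 went from -1.34, -1.27 and -1.15 to 1.5, 0.95 and 1.47 at 4 hr and 0.60, 0.83 and 0.40 at 24 hr, which is 5.89-fold (adjusted p = 0.000632) and 3.63-fold (adjusted p = 0.00448). Ddit3 went from 2.02, 1.97 and 1.62 to 3.34, 3.44 and 3.50 at 4 hr and 3.86, 3.41 and 2.93 at 24 hr. CHOP messenger was thus 2.95-fold and 2.88-fold above control, with all BPA arrays above all control arrays.

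Chac1 rose from 1.72, 1.79 and 1.52 to 3.85, 4.05 and 3.96 at 4 hr (4.84-fold, adjusted p = 0.00441) and to 4.28, 4.17 and 3.13 at 24 hr (4.54-fold, adjusted p = 0.00742). Trib3 rose from 2.70, 3.39 and 2.23 to 4.35, 4.07 and 3.87 at 4 hr (2.5-fold) and to 5.0, 4.48 and 4.67 at 24 hr (3.85-fold). Gdf15 was at -1.60, -2.10 and -2.16 in controls, at -0.80, -0.93 and -0.70 at 4 hr and at 0.73, 0.85 and -0.26 at 24 hr. The Gdf15 groups did not overlap at either time, yet only 24 hr was called (5.26-fold, adjusted p = 0.00569; 4 hr 2.21-fold, adjusted p = 0.0738).

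Sesn2 was called by its brighter probe alone, at 2.28-fold and 2.58-fold, while the second probe gave log2 differences of 0.58 (adjusted p = 0.133) and 0.71 (adjusted p = 0.0786). For Trib3 at 4 hr the second probe gave 1.29 (adjusted p = 0.175). Ppp1r15a had the widest spread, at -0.75, 0.10 and 0.59 in controls, 1.11, -0.93 and 0.62 at 4 hr and 0.97, 1.95 and 1.63 at 24 hr, and was called at neither time. Atf5 differed by 0.02 ± 0.21 at 4 hr and by 0.82 ± 0.21 at 24 hr (adjusted p = 0.0686), and Ddit4 by 0.31 ± 0.24 at 4 hr and by 1.05 ± 0.24 at 24 hr (adjusted p = 0.0466).

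Several BPA calls changed when 1 array was left out. At 4 hr the count of 6 became 5 without control replicate 2, 3 without control replicate 1, control replicate 3, BPA replicate 1 or BPA replicate 2, and 2 without BPA replicate 3, while Atf3 and Chac1 remained called each time. Sesn2 lost its 4 hr call in each of these 6 fits and Trib3 in 5 of them. Atf4 lost its call without control replicate 1 or 3 or BPA replicate 1 or 3, and Ddit3 without BPA replicate 2 or 3. At 24 hr the count of 8 became 5 without control replicate 1 or BPA replicate 2, and Ddit4 kept its 24 hr call in only 1 of the 6 fits, that without BPA replicate 3. At 24 hr Sesn2 lost its call without control replicate 1 or 2 or BPA replicate 2, Atf4 without control replicate 1 and Ddit3 without BPA replicate 2. Under a Bonferroni p below 0.01, under normexp background correction or with slide as a fixed block, no member was called at either time. Within the slide that holds 2 BPA 4 hr arrays and 1 control array, 9 of 10 members were higher with BPA, by 0.10 to 2.82, and Ddit4 differed by -0.03. Within each of the slides that hold 1 BPA 24 hr and 1 control array, all 10 were higher, by 0.66 to 2.83 and by 1.01 to 3.01. Here too the share of all probes higher within a slide was not computed.

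The effect of BPA given with KBrO3 (co-exposed minus KBrO3) was then set against the effect of BPA alone, in a fit of all 24 arrays. The arrays of the sets were read out with different software versions, so this compares differences and not levels. Of 10 members, 3 differed at 4 hr, against 7.41% of 27180 probes, and 1 at 24 hr, against 2.02%. Atf3 gained less from BPA in KBrO3-treated cells than from BPA alone, by 1.93 ± 0.19 at 4 hr (adjusted p = 2.72e-06) and by 1.05 ± 0.19 at 24 hr (adjusted p = 0.00445) on the log2 scale. For Gdf15 at 4 hr the effects were -0.17 beside KBrO3 and 1.14 alone, neither of them called, and they differed by -1.31 ± 0.25 (adjusted p = 0.00332). Ddit4 gained more at 4 hr (1.48 ± 0.20, adjusted p = 0.000102). With normexp background correction Atf3 at 4 hr was the only one of these called, and with median scaling Atf3 at 24 hr was not called (-0.99, adjusted p = 0.207). For Chac1 the gains were 2.34 and 2.27 at 4 hr, with a difference of 0.07 (95% interval -0.42 to 0.56), and for Ddit3 at 24 hr 1.52 and 1.53, with a difference of -0.01 (-0.53 to 0.51). For Atf4 the interval of the difference was -0.82 to -0.01 at 4 hr (adjusted p = 0.208) and -0.58 to 0.23 at 24 hr.

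**Figure D3:**
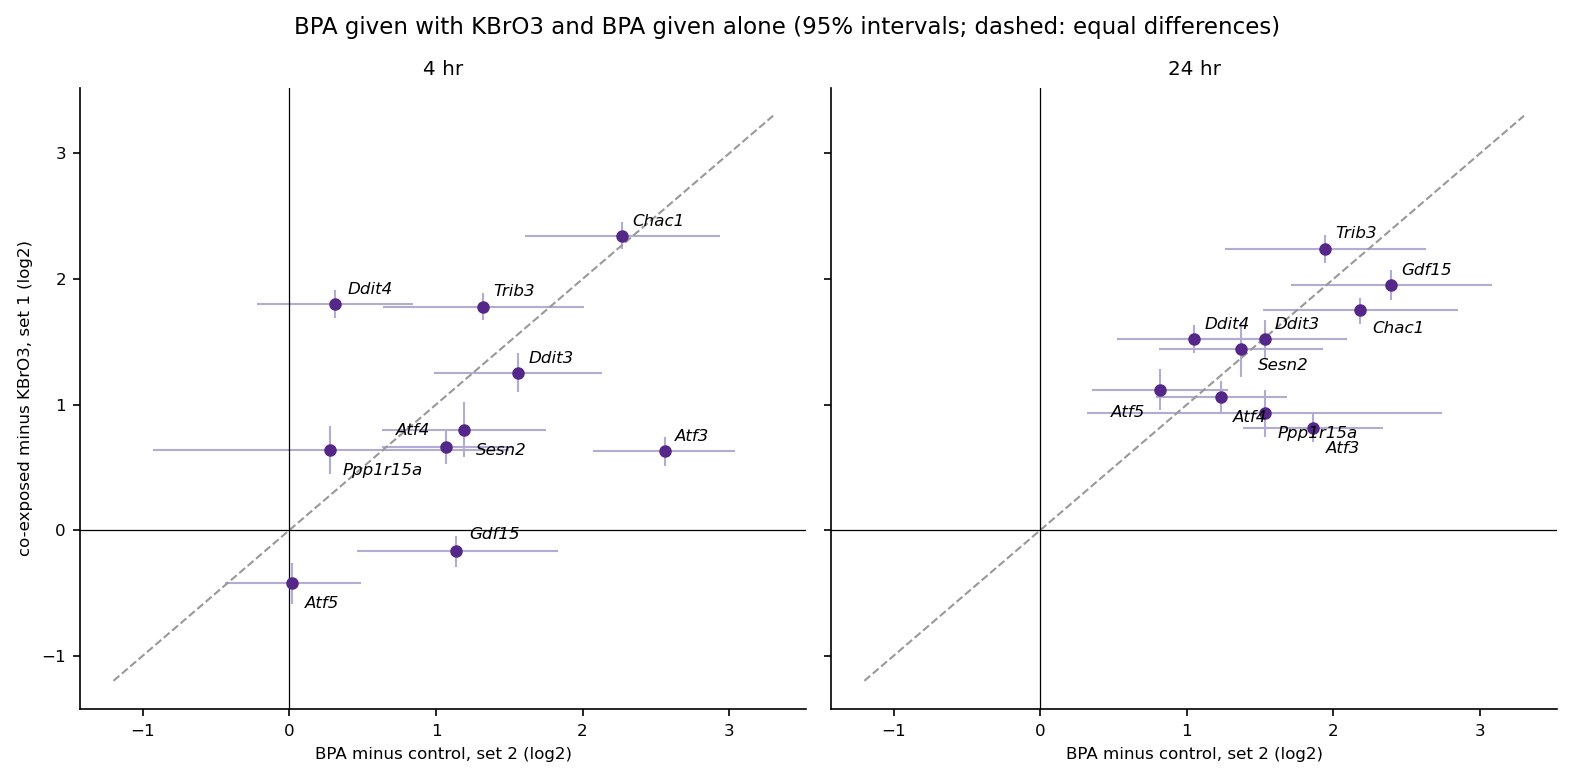
Effect of BPA given with KBrO3 (co-exposed minus KBrO3, set 1, vertical axis) against BPA alone (BPA minus control, set 2, horizontal axis) in log2 units at 4 and 24 hr; lines through the points are 95% intervals and the dashed line marks equal differences. At 4 hr Atf3 and Gdf15 lie below the dashed line and Ddit4 above it, and at 24 hr the differences between the effects run from -1.05 (Atf3) to 0.47 (Ddit4).

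A list of 35 genes that ATF4 is known to activate, with 34 tested in set 1, was followed beside the regulators. With KBrO3, 17 of 34 were higher at 4 hr and 8 at 24 hr, and with co-exposure 27 and 31, with none lower in any of these 4 comparisons. Of all probes, 23.0% and 14.1% were higher with KBrO3 at these times and 29.9% and 15.9% with co-exposure. Co-exposure exceeded KBrO3 for 17 of 34 at 4 hr (median log2 difference 0.59) and for 25 of 34 at 24 hr (median 1.00), again with none lower, beside 11.9% and 5.35% of all probes higher and medians of all probes of 0.02 and -0.04. Of all probes, 22.5% and 19.1% were lower than control with KBrO3 at 4 and 24 hr, 24.4% and 23.5% with co-exposure, and 8.21% and 8.23% were lower with co-exposure than with KBrO3. BPA alone gave 9 of 35 higher at 4 hr and 18 of 35 at 24 hr, with none lower, beside 2.83% and 1.39% of all probes higher. The largest rises at 4 hr belonged to Slc7a11, the cystine importer, at 32.8-fold with KBrO3 and 50.5-fold with co-exposure. Vegfa, a vessel growth factor, rose 10.7-fold and 13-fold, and the leucine transporter Slc7a5 rose 9.55-fold with co-exposure.

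Many genes of this list make or carry amino acids, and their values are log2 differences. Asns, asparagine synthetase, was 1.04 above control at 4 hr of KBrO3 and 1.84 at 4 hr of co-exposure, and 0.52 (not called) and 1.90 at 24 hr. Cth, which makes cysteine from cystathionine, exceeded KBrO3 by 1.62 at 4 hr and by 2.18 at 24 hr, and was 2.81 above control at 24 hr of BPA alone. Mthfd2, a mitochondrial folate enzyme, was 2.96 above control at 4 hr of co-exposure and 2.32 at 24 hr, and 1.41 and 1.43 with BPA alone. The aminoacyl-tRNA synthetases of the list (Aars, Cars, Gars, Nars, Sars, Wars and Yars) were all higher than control at 24 hr of co-exposure, by 1.03 to 1.63. Not every target followed, since Map1lc3b and Stc2 were called in none of the 6 set 1 comparisons of treatments with control or with KBrO3.

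Upstream of the regulators, 16 genes for eIF2α kinases, eIF2 and eIF2B subunits and their regulators were listed. Of these, 8 were higher with KBrO3 at 4 hr and 9 with co-exposure, led by Eif2s2, the β subunit of eIF2, at 3.27-fold and 5.90-fold, where 23.0% and 29.9% of all probes were higher. Among the eIF2α kinases at 4 hr of co-exposure, PERK (Eif2ak3) was 1.79-fold lower and Eif2ak4 2.13-fold higher, while Eif2ak1 and Eif2ak2 were not called. Ppp1r15b, the constitutive partner of the eIF2α phosphatase, was 3.65-fold higher in the same comparison. At 24 hr of co-exposure PERK was 2.34-fold lower, Eif2ak2 was 1.66-fold and Eif2ak1 1.53-fold higher, and Eif2ak4 was not called. Co-exposure exceeded KBrO3 for 4 of 16 at 4 hr and for none at 24 hr, where their median difference was -0.01, beside 11.9% and 5.35% of all probes higher. BPA alone raised 1 of 16 at 4 hr (Ppp1r15b) and none at 24 hr. With BPA 2.83% and 1.39% of all probes were higher, so counts this small say little about the list. These counts of 0 are limma calls, and at an unadjusted p below 0.05 the numbers were 9 and 2. No share of all probes at that unadjusted p was worked out, so 9 and 2 are not read as an effect on this list.

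The other branches of the unfolded protein response, read out by chaperones and XBP1 targets, gave other counts. Of 17 such genes, 5 were higher and 1 lower with KBrO3 at 4 hr, and 1 higher and 8 lower at 24 hr, beside 23.0% higher and 22.5% lower of all probes at 4 hr and 14.1% higher and 19.1% lower at 24 hr. Hspa5, the chaperone BiP, rose 3.75-fold with KBrO3 and 3.91-fold with co-exposure at 4 hr (fitted without co-exposed replicate 1, whose spot was an outlier), and Dnajb9 rose 4.16-fold and 3.25-fold. Co-exposure exceeded KBrO3 for 1 of 17 at 4 hr (Herpud1, by 0.98) and for 3 of 17 at 24 hr (Herpud1, Sdf2l1 and Xbp1), beside 11.9% and 5.35% of all probes. BPA alone gave limma calls for 0 of 17 at 4 hr (2 at an unadjusted p below 0.05) and for 1 at 24 hr (Sdf2l1), where 2.83% and 1.39% of all probes were higher. The unadjusted 2 has no share of all probes beside it.

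Among 26 bZIP proteins that can pair with ATF4, CHOP or ATF3 or bind the same sites, 9 were higher and 4 lower with KBrO3 at 4 hr, beside 23.0% and 22.5% of all probes. At 24 hr of KBrO3, 1 was higher and 10 were lower (median -0.32), beside 14.1% and 19.1% of all probes. With co-exposure 11 were higher and 2 lower at 4 hr (29.9% and 24.4% of all probes), and 4 higher and 5 lower at 24 hr (15.9% and 23.5%). At 4 hr of KBrO3 Fosl1 rose 22-fold, Jun 5.87-fold and Fosb 4.44-fold, and at 4 hr of co-exposure Fosl1 rose 16.5-fold and Jun 5.40-fold. Also at 4 hr, Creb3l2 was 2.88-fold lower with KBrO3 and 4.99-fold with co-exposure, and Batf 3.23-fold lower with KBrO3. Co-exposure exceeded KBrO3 for 3 and was below it for 3 at 4 hr, and exceeded it for 6 with none below at 24 hr, beside 11.9% higher and 8.21% lower of all probes at 4 hr and 5.35% higher at 24 hr. The 8 genes described as CHOP targets were counted without regard to the direction in which CHOP acts on each. With KBrO3 at 4 hr, 2 were higher than control and 3 lower (Bbc3, Cdc42ep2 and Bcl2), with a median of -0.27. All probes were 23.0% higher and 22.5% lower there. With co-exposure at 4 hr, 3 were higher and 3 lower (median -0.08), beside 29.9% and 24.4% of all probes. At 24 hr 1 was higher and 2 lower with KBrO3 (14.1% and 19.1% of all probes), and 4 higher and 1 lower with co-exposure (15.9% and 23.5%). Co-exposure exceeded KBrO3 by limma for 0 of the 8 at 4 hr and for 4 at 24 hr, beside 11.9% and 5.35% of all probes. It was below KBrO3 for 1 at 24 hr (Cdc42ep2), beside 8.23% of all probes. At 4 hr 7 of the 8 had an unadjusted p below 0.05, a number with no share of all probes beside it. Co-exposed and KBrO3 arrays at 4 hr did not overlap for 38.4% (above) and 35.9% (below) of all probes. Car6, a secreted carbonic anhydrase, was 4.47 above control on the log2 scale at 24 hr of co-exposure and 4.01 at 24 hr of BPA.

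Some members also answer p53 or NRF2, the regulators of DNA damage and oxidant responses, so lists of their targets were read beside them. Of 18 p53 targets, co-exposure exceeded KBrO3 for 1 and was below it for 3 at 4 hr, and exceeded it for 13 at 24 hr with none below (median 0.94), where 11.9% and 5.35% of all probes were higher and 8.21% and 8.23% lower. Cdkn1a, which stops the cell cycle, differed by -0.17 at 4 hr and by 1.65 at 24 hr, and Eda2r by 0.09 and 1.82. Of 16 NRF2 targets, 13 were higher with KBrO3 at 4 hr (median 2.94, beside 23.0% of all probes higher), where Hmox1 rose 74.7-fold, and co-exposure exceeded KBrO3 for 1 at 4 hr and 7 at 24 hr, with 3 and 0 below. Slc7a11 is on both the ATF4 and NRF2 lists, Cebpg on both the ATF4 and bZIP lists, and Bbc3 and Tnfrsf10b on both the p53 and CHOP lists. The part of p53 or NRF2 in the members' levels was not tested.

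**Figure D4:**
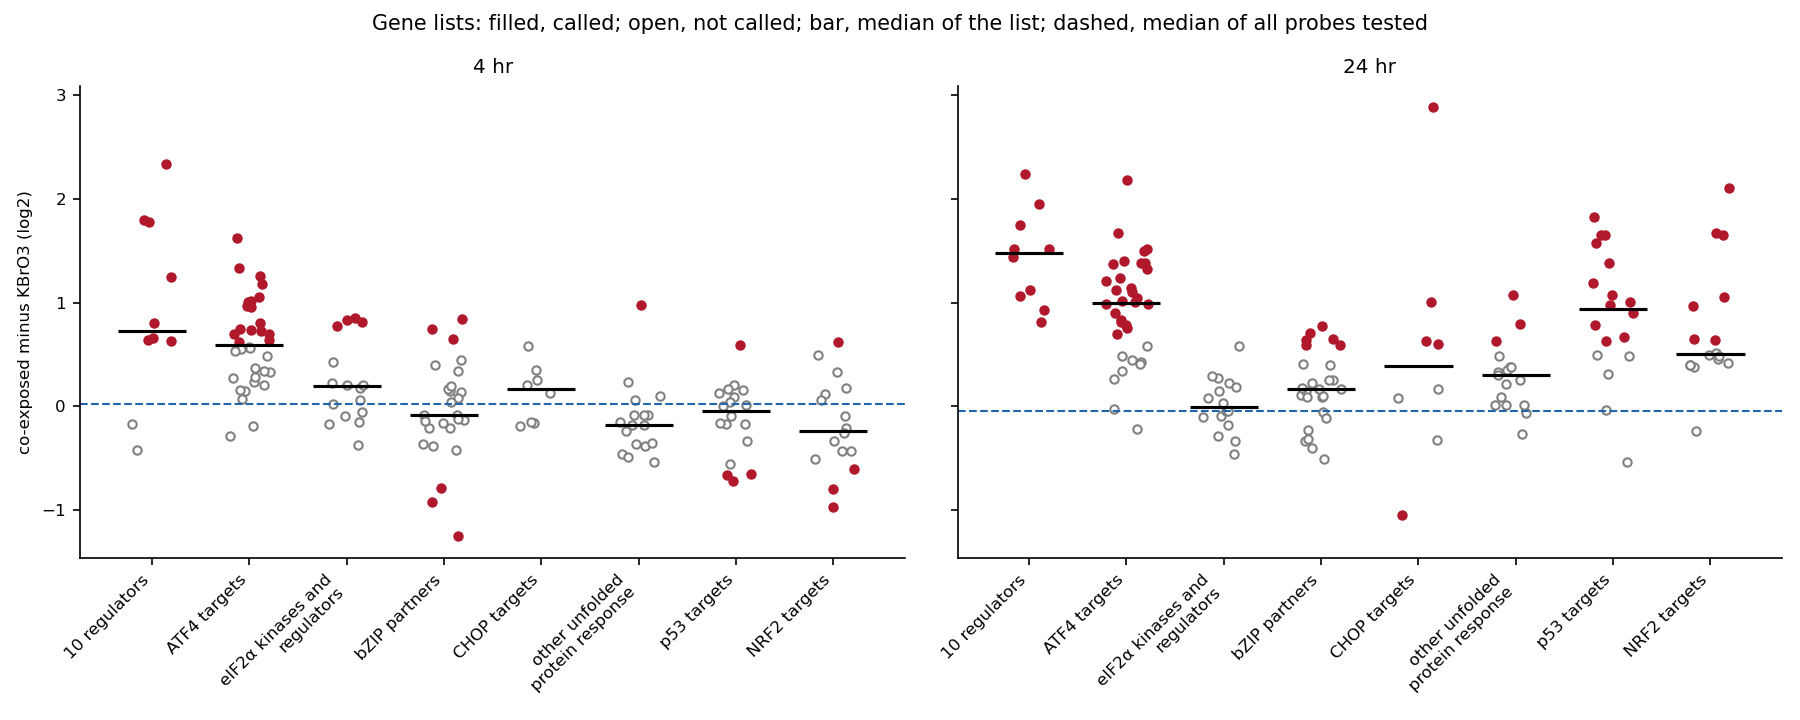
Log2 difference of co-exposed from KBrO3 cells at 4 and 24 hr for the 10 regulators and 7 gene lists; each point is a gene, filled where called, bars are list medians and the dashed line is the median of all probes tested. The 10 regulators and the ATF4 targets have the highest medians at both times (0.73 and 0.59 at 4 hr, 1.48 and 1.00 at 24 hr), while the upstream list is centred on 0.19 and -0.01. The p53 targets are at -0.05 at 4 hr and at 0.94 at 24 hr, close to the ATF4 targets.

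Genes most like Atf4, Ddit3 and Atf3 were found as those with the smallest root mean square difference over the 6 log2 differences from control, among 14033 other protein-coding genes. Nearest to Atf4 were Timm8a1 (0.182), Lratd2 (0.191) and Slc3a2 (0.235), the last being the heavy chain that Slc7a11 and Slc7a5 need. Its nearest fellow member, Ppp1r15a, came at rank 233 (0.594). Nearest to Ddit3 were Mthfd2 (0.261), the member Sesn2 (0.376), Slc5a8 (0.384) and Odc1 (0.395). Atf3 had no close match, since its nearest genes Hmox1, Slc7a11 and Ptgs2 lay 0.614, 0.646 and 0.693 away.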

How the data were processed

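The authors' Agilent Feature Extraction files (12.0 per the labels' processing notes, 9.5.3.1 in set 1 and 12.0.0.7 in set 2 per the file headers) give background-subtracted probe intensity values, and the deposited value table held the same intensity for all 1041096 values compared. Intensities were scaled to each array's 75th percentile, log2-transformed and averaged over a probe's spots without control spots and outliers. Set 2 names no genes, so names came from set 1 through the probe identifiers. The 27310 and 31810 probes that cleared background throughout 1 or more groups of a set were fitted with limma 3.58.1 (R 4.3.3), per set, without a block, and all 24 arrays were fitted together to compare the sets. Labels give BPA alone as 4 and 24 hr, and the methods an hour more. The methods' own rule, Bonferroni below 0.01 with 1.5-fold, was an alternative, beside other scaling, normexp background correction (on median signals in set 2), filters, weights, slide and replicate blocks, and leaving out each array. The fits were tested on simulated data. Members and lists were chosen with earlier results of these data known. Some listed genes were named from the 3 largest rises and falls at 4 hr of KBrO3 or co-exposure, without naming all of these. Others were chosen after their values were seen. The number of arrays limits the precision.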

Additional observations from a re-analysis of the deposited data

Results flagged for a closer look

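For 4 members the co-exposed minus KBrO3 difference changed from 4 to 24 hr, on the test of that change in set 1, where 27.3% of all probes were called. The log2 change was 2.11 for Gdf15 and 1.54 for Atf5, both of which went from below to above KBrO3 cells. It was 0.64 for Sesn2, whose second probe gave -0.01, and -0.60 for Chac1. Chac1 was not called with median scaling (-0.29, adjusted p = 0.1), normexp background correction or the Bonferroni rule, and fell short of 1.5-fold without co-exposed 4 hr replicate 2 (-0.58), KBrO3 24 hr replicate 3 (-0.55) or co-exposed 24 hr replicate 3 (-0.57), and Sesn2 did so without co-exposed 24 hr replicate 2 (0.54), with quantile normalization (0.52) and over the mean of its probes (0.32). Sesn2 was also not called with normexp or the Bonferroni rule. In the 4 hr part of this change the treatments lie on different slides, and the effects of the slides cannot be told apart from it.

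For 3 members BPA had another effect beside KBrO3 than alone, on the test across the sets, where 7.41% of all probes were called at 4 hr and 2.02% at 24 hr. At 4 hr the log2 difference of the effects was -1.93 for Atf3, 1.48 for Ddit4 and -1.31 for Gdf15, and at 24 hr it was -1.05 for Atf3. Under normexp background correction, as under the Bonferroni rule, Atf3 at 4 hr was the only one called. The sets differ in the image software and in the spread between arrays, and the part of these in the differences was not tested. By the labels BPA alone lasted an hour less than BPA in co-exposure, and by the methods equally long.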

How the results depend on the processing

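Over 38 alternatives, 1840 of 1984 recomputed member values kept their direction and their side of the thresholds, 119 lost the call, 12 gained it and 13 changed sign, none of them from a called value. The 10 of 10 members higher with co-exposure than with KBrO3 at 24 hr held under every alternative run. With arrays scaled to the median the members called were 5 for co-exposed against KBrO3 at 4 hr, 3 for BPA at 4 hr and 0 for BPA with KBrO3 against BPA alone at 24 hr. This scaling moved the median of all probes by -0.14 for co-exposed at 4 hr against control or KBrO3, by 0.15 for KBrO3 and 0.32 for co-exposed at 24 hr against control, by 0.17 between them, and by 0.11 for BPA at 24 hr. Normexp and Bonferroni each gave 2 for the change of co-exposed minus KBrO3, 0 for BPA at either time, and 1 and 0 for BPA with KBrO3 against BPA alone at 4 and 24 hr. With slide as a fixed block BPA gave 0 at either time, with only the arrays compared BPA at 24 hr gave 2, and the error-weighted fit and the mean of all probes each gave 1 between BPA times. The replicate block, although the numbers do not pair the arrays (mean correlation of deviations -0.11 to 0.13 in set 2 and -0.04 to 0.00 in set 1), gave 3 for BPA at 4 hr and moved no other count by more than 1.5 times. Leaving out 1 array gave 2 to 5 members for BPA at 4 hr, 5 to 8 at 24 hr, 0 to 1 between BPA times and 1 to 2 across sets at 24 hr, where 2 came without BPA 24 hr replicate 3. Signs changed for uncalled values: Ddit4 at 4 hr of KBrO3 (0.00, quantile) and of BPA (-0.03, slide fixed), Atf5 at 4 hr of KBrO3 (0.19, normexp) and of BPA (-0.13, quantile; -0.23, normexp; -0.06 to 0.17, arrays left out), Ppp1r15a at 4 hr of BPA (-0.14 to 0.88, arrays left out), Sesn2 at 24 hr of KBrO3 (-0.04, slide random) and Atf4 from 4 to 24 hr of co-exposure (0.05, median scaling). Apart from these constructions the cause was not tested. Under Bonferroni 0.0660% and 0.0189% of all probes were called for BPA at 4 and 24 hr, against 4.24% and 3.40% by the main rule.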

Other observations

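Of the 26 bZIP genes, BPA alone raised 8 at 4 hr and 5 at 24 hr and lowered none, against 2.83% and 1.39% of all probes higher. The genes named here were chosen after their values were seen. Cebpd and Cebpb, C/EBP factors that can pair with ATF4 and CHOP, had log2 differences of 3.31 and 1.67 at 4 hr and of 2.11 and 1.69 at 24 hr. Junb, an AP-1 subunit, had 1.88 at 4 hr (called) and 0.53 at 24 hr (not called). With KBrO3 at 24 hr, Cebpd and Cebpb were lower than control, at -1.12 and -1.13, and co-exposed cells exceeded KBrO3 cells by 0.71 and 0.65. In the fit across sets, the effect of BPA beside KBrO3 was smaller than that of BPA alone for 9 of the 26 at 4 hr and for 4 at 24 hr (4.54% and 1.15% of all probes), and larger for none (2.87% and 0.872%).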
